A study of Mus musculus with 4 samples.

Results

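Heat shock proteins and their DNAJ cochaperones were followed by RNA sequencing in mAEC, a line of cultured murine aortic endothelium, the cell layer that lines the aorta. Genes were chosen by symbol: the HSP70, HSP110, HSP90 and small heat shock protein genes, the mitochondrial chaperonin pair, the DNAJA, DNAJB and DNAJC genes, the CCT chaperonin subunits that carry a Cct symbol, and the heat shock factors Hsf1 and Hsf2, leaving out the endoplasmic reticulum genes Hspa5, Dnajb9, Dnajb11 and Dnajc3. The rule used no measured value and found 79 of the 27179 genes in the deposited table. The conditioned medium group had been treated with the supernatant of macrophages positive for TNFα and CD68, and the control group was kept in normal medium. Each group held 2 libraries, described as biological replicates. Neither the dose or duration of the treatment nor the genotype or passage of the line is stated in the labels.

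These proteins keep other proteins folded. HSP70 proteins bind and release unfolded stretches in a cycle driven by ATP, DNAJ proteins deliver clients and start ATP hydrolysis, and HSP110 proteins exchange the nucleotide so that the client leaves. HSP90 finishes the folding of kinases and receptors, small heat shock proteins hold unfolded proteins without ATP, and the ring-shaped chaperonins enclose a client, HSP60 with its lid HSP10 in mitochondria and CCT in the cytosol for actin and tubulin. HSF1 raises many of these genes after heat or toxic protein damage through heat shock elements, inverted repeats of GAA in their promoters. In endothelium HSP90 is known as a partner of nitric oxide synthase, and Hspa12b as an HSP70 relative enriched in endothelial cells.

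Promoter stretches with heat shock elements are shown for the inducible HSP70 copies, for the mitochondrial chaperonin pair and for Dnajb6, so that their letters can be read beside the values given further on. They come from RefSeq windows of the GRCm38.p6 build, running from 250 bases before to 50 bases after each start, which matched 62 of the 79 members. The heat shock element was searched as 2 neighbouring units, GAANNTTC or TTCNNGAA, and as 3 units, GAANNTTCNNGAA or TTCNNGAANNTTC, so that both strands are covered and every match of 3 units also holds matches of 2. The 250 bases before the starts of Hspa1a (chr17:34972157-34972406, minus strand) and Hspa1b (chr17:34959239-34959488, minus strand), the inducible cytosolic HSP70 genes, differed at 3 positions, and both held a 2-unit match at position -104 from the start. Hspd1 (HSP60) and Hspe1 (HSP10) lie on opposite strands of chromosome 1, and 4 consecutive units stand upstream of the Hspe1 start and of 1 of the 2 listed Hspd1 starts, from position -89 of Hspe1 (chr1:55088053-55088082, plus strand of Hspe1). Dnajb6, a DNAJ protein that suppresses protein aggregation, held a 3-unit match from position -46 (chr5:29735844-29735873, plus strand). Capitals mark the GAA and TTC units of the matches.
Hspa1a: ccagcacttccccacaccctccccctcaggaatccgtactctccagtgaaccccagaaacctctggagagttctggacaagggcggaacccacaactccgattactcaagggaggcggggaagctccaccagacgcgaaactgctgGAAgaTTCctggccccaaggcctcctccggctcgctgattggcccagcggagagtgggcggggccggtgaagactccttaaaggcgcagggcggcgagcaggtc
Hspa1b: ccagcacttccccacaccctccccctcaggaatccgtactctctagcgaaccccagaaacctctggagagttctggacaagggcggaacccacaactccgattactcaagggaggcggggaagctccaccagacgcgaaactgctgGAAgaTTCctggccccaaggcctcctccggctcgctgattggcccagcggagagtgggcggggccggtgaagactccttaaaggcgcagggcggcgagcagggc
Hspe1 and Hspd1: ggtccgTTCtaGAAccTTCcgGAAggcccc
Dnajb6: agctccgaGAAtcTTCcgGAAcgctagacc

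Hspd1, Hspe1, Dnajb6 and Hsph1 were the 4 members with a 3-unit match, 6.45% of the members with a window, against 0.662% of all 27025 genes with one. Hspd1 and Hspe1 share the stretch shown above, and each of them is counted. A 2-unit match stood in 20 members (32.3%), against 17.0% of all genes. Among these 20 members, 2 rose, 2 fell, 12 were not called and 4 had too few counts to be tested. Over all genes tested, 16.8% were called. The 2 that rose, Hspa1a and Hspa1b, share sequence and may be a single signal. A match is a description of the letters in the window and was not tested as a binding site.

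The libraries held 13815695 to 18005840 counts in conditioned medium and 14493674 to 14966911 in control. Levels are given in CPM, counts scaled to library size with TMM factors. The 79 genes together took 1.10% and 1.11% of all counts in conditioned medium, against 1.12% and 1.09% in control. All 10 endothelial markers were tested, of which 1 was called higher (Egfl7) and 2 lower (Kdr and Emcn). Their summed level was 7033 and 6964 CPM in conditioned medium, against 6938 and 6932 CPM in control, although Vwf stayed at 2.30 to 3.49 CPM. Of 10 macrophage markers, 5 had 0 counts in every library, among them Adgre1, Tyrobp and C1qa, and Cd68 made up nearly all of a summed level of 241 and 249 CPM in conditioned medium, against 220 and 248 CPM in control. The summed smooth muscle markers stood at 4.47 and 4.93 CPM in conditioned medium, against 4.33 and 3.83 CPM in control, and the summed fibroblast markers at 32.5 and 32.9 CPM in conditioned medium, against 25.7 and 27.9 CPM in control, nearly all of it Pdgfra, which was called higher. Any part of cells other than endothelial cells in the results was not tested. In bulk RNA, fewer cells that express a gene and less RNA per cell cannot be told apart.

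Of the 79 members, 65 had enough counts to be tested. In conditioned medium 6 rose and 4 fell at an adjusted p under 0.05, and 55 were not called (edgeR quasi-likelihood test, two-sided, adjusted over all 13897 genes tested). The share called, 15.4%, lay near the 16.8% of all genes tested, of which 8.53% were called higher and 8.23% lower. At an unadjusted p under 0.05 stood 20 of the 65 members tested, against 4105 of all 13897 genes. The members' median log2 fold change was -0.03 against 0.00 for all genes, and their median absolute log2 fold change 0.128 against 0.130. The groups did not overlap in 19 members that were higher and 22 that were lower, which is 63.1% of the members tested, against 57.2% of all genes (28.5% higher and 28.8% lower). The labels call the libraries biological replicates but do not say that they came from separate cultures, so the p-values measure only the spread between these libraries, which may be technical. The calls depended on which library was left out, among the members and over all genes tested. Without conditioned medium replicate 2 edgeR called fewer of both than with all 4 libraries, and without control replicate 2 more of both. The calls added among the members in the latter were all lower. The members' median log2 fold change was -0.03 without conditioned medium replicate 2 and -0.02 without control replicate 2.

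**Figure D1:**
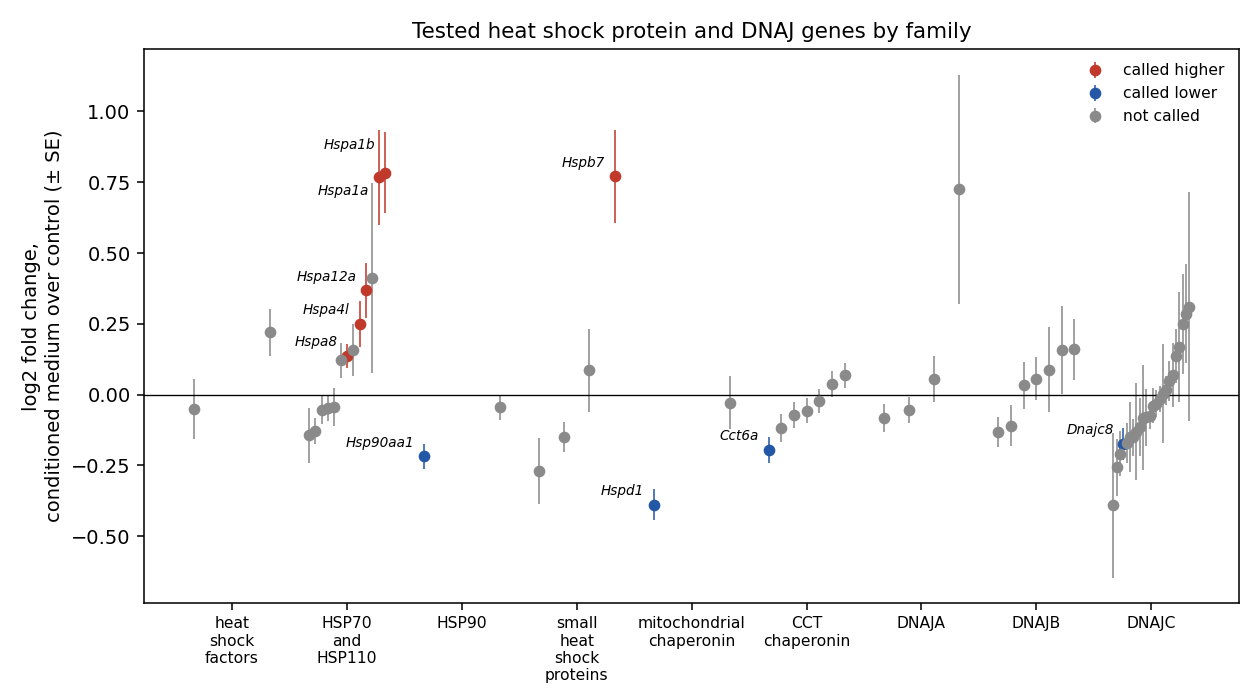
Log2 fold change of conditioned medium over control, with its SE as the bar, for the 65 tested members, set out by family on the x axis. Red points were called higher and blue points lower; the HSP70 and HSP110 family holds 5 of the 6 that rose, and the DNAJ families hold 1 of the 10 called.

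The HSP70 and HSP110 genes held most of the rises. Of 13 members, all tested, 5 rose and 0 fell. That is 38.5% of the family, against 16.8% of all genes called in either direction and 8.53% called higher. The 5 include Hspa1a and Hspa1b, which may be a single signal. The median log2 fold change of the family was 0.14, and 1 further member, Hspa9, was lower at an unadjusted p under 0.05 by edgeR. DESeq2 called 2 of the 13 higher and limma-voom 4, and neither called any lower. Over all genes DESeq2 called 904 and limma-voom 2325, against 2330 by edgeR. Without either conditioned medium library edgeR called fewer of the family, and fewer of all genes, than with all 4 libraries. The family lost all its calls without conditioned medium replicate 2. With a single library left out, the family's median log2 fold change was 0.11 to 0.17. Hspa9 was called lower with a robust estimate of the spread on all 4 libraries, and without control replicate 2.

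Hspa1b, an inducible HSP70 gene kept low in unstressed cells, had 10.4 and 12.4 CPM in conditioned medium, against 6.64 and 6.71 CPM in control. Both treated libraries stood above both controls, and the log2 fold change was 0.78 ± 0.14 (SE), a 1.72-fold rise (edgeR adjusted p = 6.22e-04). Its copy Hspa1a had 7.58 and 9.20 CPM in conditioned medium, against 4.74 and 5.20 CPM in control, likewise without overlap. It rose 1.70-fold (log2 fold change 0.77 ± 0.17; adjusted p = 0.00282 by edgeR). The counts behind these values were 105 and 166 in conditioned medium, against 70 and 76 in control, for Hspa1a. For Hspa1b they were 144 and 224 in conditioned medium, against 98 and 98 in control. The copies share sequence: 58.8% of the 50-base windows of the Hspa1a transcript occur exactly in Hspa1b and 62.3% the other way, so the counting could split their reads, and the values may be a single signal. Summed, the pair had 18.0 and 21.6 CPM in conditioned medium, against 11.4 and 11.9 CPM in control. Hspa1l, their neighbour, known for expression in testis, averaged 1.65 ± 0.217 CPM in conditioned medium and 1.23 ± 0.298 CPM in control (SD, n = 2 each), with no overlap and no call (log2 fold change 0.41 ± 0.34). Without conditioned medium replicate 2 both inducible copies lost the call, at log2 fold changes of 0.64 for Hspa1b (adjusted p = 0.0752, with alternatives from 6.97e-06) and 0.61 for Hspa1a (adjusted p = 0.144, with alternatives from 2.38e-04), and DESeq2 did not call Hspa1a (adjusted p = 0.0547).

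Hspa8, the constitutive HSP70 that serves most cytosolic folding, was the most abundant member per kilobase of transcript, at 1557 CPM per kb in conditioned medium and 1416 CPM per kb in control. Its level was 3719 and 3737 CPM in conditioned medium, against 3454 and 3324 CPM in control. That rise of 1.10-fold (log2 fold change 0.14 ± 0.04; adjusted p = 0.0299 by edgeR) was the smallest among the called members. In CPM, however, it was the largest shift: Hspa8 averaged 3728 ± 12.7 CPM in conditioned medium and 3389 ± 92.0 CPM in control (SD, n = 2 each), and took 82.2% of the HSP70 and HSP110 CPM in both treated libraries, against 80.5% and 80.7% in the controls. Hspa8 still exceeded the inducible pair by 207 and 173 times in conditioned medium, against 304 and 279 times in control. How reads shared by the copies of the pair were counted is not stated, so the level of the pair and these ratios are approximate. The snoRNA genes Snord14c, Snord14d and Snord14e, which have rows of their own, lie within its locus. The Hspa8 call was lost without either conditioned medium library, at log2 fold changes of 0.14 and 0.13 (adjusted p = 0.394 and 0.439, with alternatives from 8.16e-09).

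Among the remaining HSP70 relatives, Hspa12a, a divergent HSP70, had 22.9 and 27.0 CPM in conditioned medium, against 20.2 and 18.7 CPM in control. The groups did not overlap, and it rose by 0.37 ± 0.10 on the log2 scale (adjusted p = 0.0120 by edgeR). Its locus overlaps that of Eno4, and without strand their reads cannot be told apart where exons meet. Its relative Hspa12b stood at 21.1 and 21.2 CPM in conditioned medium, against 19.2 and 18.7 CPM in control, also without overlap, but was not called (log2 fold change 0.16 ± 0.09, edgeR adjusted p = 0.267). Hspa4l, of the HSP110 group, had 43.2 and 37.2 CPM in conditioned medium, against 35.4 and 31.8 CPM in control. Its treated values lay just above the controls, and it rose by 0.25 ± 0.08 on the log2 scale (edgeR adjusted p = 0.0399). The related nucleotide exchange factors Hsph1 (0.12 ± 0.06) and Hspa4 (-0.05 ± 0.04) were not called. The mitochondrial HSP70 gene Hspa9 had 187 and 190 CPM in conditioned medium, against 214 and 199 CPM in control, a log2 fold change of -0.13 ± 0.05 that missed the threshold (edgeR adjusted p = 0.0672). Hspa2, Hspa13 and Hspa14 lay between -0.14 and -0.04 and were not called. Hspa12a lost its call without conditioned medium replicate 2, at 0.23 (adjusted p = 0.330, with alternatives from 9.82e-04), and in DESeq2. Hspa4l lost it in DESeq2, in limma-voom, with no count filter and without either conditioned medium library or control replicate 2, at log2 fold changes of 0.15 to 0.36 (adjusted p from 0.00183 to 0.461 over its alternatives).

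**Figure D2:**
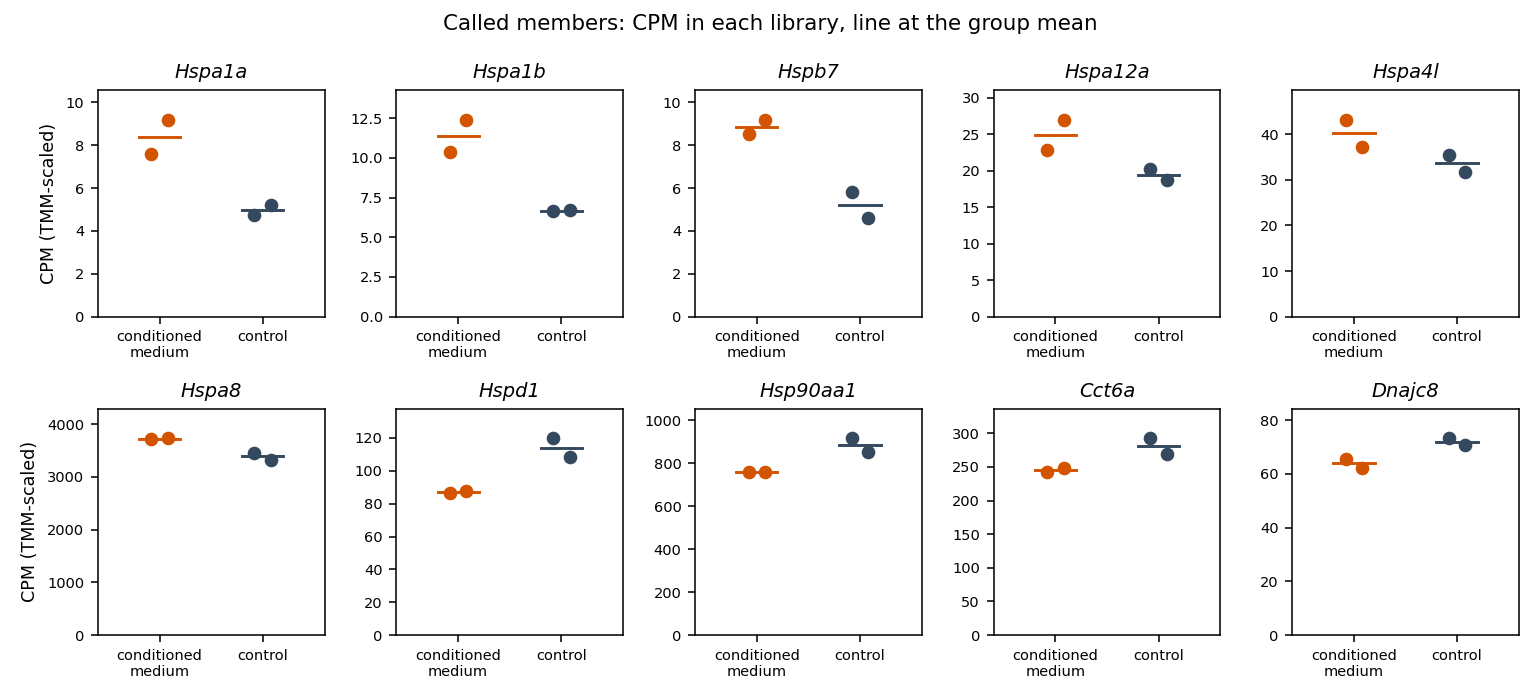
CPM of the 10 called members in each library (points), with the mean of the 2 libraries as a line, conditioned medium at the left and control at the right of each panel. The treated points stand above both control points in the 6 genes that rose and below both in Hspd1, Hsp90aa1, Cct6a and Dnajc8.

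Of the cytosolic HSP90 genes 1 fell and 1 was not called. Over all genes tested 16.8% were called, a share that so few genes cannot be set against. Hsp90aa1, the stress-inducible form, had 760 and 761 CPM in conditioned medium, against 917 and 851 CPM in control. The treated libraries were nearly equal and both lay below the controls, 1.16-fold lower (log2 fold change -0.22 ± 0.04; adjusted p = 0.00167 by edgeR). Hsp90ab1, the constitutive form and the second most abundant member per kilobase, stood at 1748 and 1768 CPM in conditioned medium, against 1865 and 1762 CPM in control, where the groups overlapped (log2 fold change -0.04 ± 0.04, edgeR adjusted p = 0.536). Per kilobase, Hsp90aa1 stood at 0.334 and 0.330 of the level of Hsp90ab1 in conditioned medium, against 0.378 and 0.371 in control. The call of Hsp90aa1 was lost without either conditioned medium library, at a log2 fold change of -0.22 each (adjusted p = 0.124 and 0.145, with alternatives from 1.16e-15), and Hsp90ab1 was called lower without control replicate 2 (adjusted p = 0.0145, within alternatives up to 0.957).

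Small heat shock protein genes held 8 members, of which 4 were tested and 1 rose. That is 25% of those tested against the 16.8% of all genes, on too few genes to compare shares. Hspb7, a small heat shock protein best known from heart muscle, had 8.51 and 9.20 CPM in conditioned medium, against 5.82 and 4.58 CPM in control. Its groups did not overlap, and it rose 1.71-fold (log2 fold change 0.77 ± 0.16; adjusted p = 0.00233 by edgeR). This rests on 118 and 166 counts in conditioned medium, against 86 and 67 in control. Hspb1, the HSP25 gene and the abundant family member, had 133 and 140 CPM in conditioned medium, against 144 and 159 CPM in control, and was not called (log2 fold change -0.15 ± 0.05; adjusted p = 0.0576 by edgeR). Hspb1 was called lower with a robust estimate of the spread on all 4 libraries, and without control replicate 1. Its log2 fold change ran from -0.22 to -0.08 over the alternatives. Hspb11, also known as the ciliary transport protein IFT25, stood at -0.27 ± 0.12, and Hspb6 at 0.09 ± 0.15, both without a call. Hspb3 and Hspb8 had 0 counts in every library, and Hspb2 and Hspb9 had at most 8. At 3 counts per library this allows up to 0.167 to 0.217 CPM for a gene at 0, which covers counting error only. Hspb7 was not called without conditioned medium replicate 2 (log2 fold change 0.71, adjusted p = 0.0957, with alternatives from 4.69e-05).

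Hspd1 and Hspe1 encode the barrel and the lid of the mitochondrial chaperonin and both have the stretch with 4 heat shock units shown above in a promoter window. Hspd1 had 86.3 and 88.0 CPM in conditioned medium, against 120 and 108 CPM in control. Both treated libraries lay well below the controls, and it was 1.31-fold lower (log2 fold change -0.39 ± 0.06; adjusted p = 4.69e-05 by edgeR). Hspe1 had 22.6 and 24.8 CPM in conditioned medium, against 26.0 and 22.4 CPM in control, with overlapping groups and no call (log2 fold change -0.03 ± 0.09; adjusted p = 0.882 by edgeR). Per kilobase of transcript the ratio of Hspd1 to Hspe1 was 1.22 and 1.13 in conditioned medium, against 1.47 and 1.54 in control; the difference of the changes was not tested across genes. Hspd1 was the one called member that kept its call in all 13 alternatives, at log2 fold changes of -0.46 to -0.31 and adjusted p up to 0.0159, while Hspe1 ranged from -0.13 to 0.08 and was called in 0 of 13. The outer Hspd1 start lies beyond the Hspe1 start, so the 2 genes overlap by 96 bases, where unstranded reads cannot be assigned.

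The cytosolic chaperonin CCT is a ring of different subunits, and 7 of its 9 members here were tested. The others were the copies Cct6b and Cct8l1 with at most 11 counts per library. Of the 7, 1 was called, 14.3% against the 16.8% of all genes. Cct6a fell: it had 242 and 248 CPM in conditioned medium, against 293 and 269 CPM in control, without overlap (log2 fold change -0.20 ± 0.05; adjusted p = 0.00636 by edgeR). No other subunit was called, with Cct3 at -0.12 ± 0.05, Cct8 at -0.07 ± 0.05, Cct2 at -0.06 ± 0.04, Cct5 at -0.02 ± 0.04, Cct7 at 0.04 ± 0.05 and Cct4 at 0.07 ± 0.04. Leaving out control replicate 2 added Cct2 (-0.10) and Cct3 (-0.16) to the subunits that edgeR called lower. Leaving out control replicate 1 added a higher call of Cct4. Each of these settings also called more genes over the whole table than all 4 libraries did. Tcp1, the subunit whose symbol lies outside the rule, stood at 353 and 365 CPM in conditioned medium, against 368 and 339 CPM in control (0.02 ± 0.05). The subunits differed in level per kilobase. Cct3, the lowest, stood at 56.9 and 55.6 CPM per kb in conditioned medium, against 62.7 and 59.3 CPM per kb in control. Cct2, the highest, stood at 249 and 253 CPM per kb in conditioned medium, against 269 and 253 CPM per kb in control. The highest exceeded the lowest 4.37 and 4.54 times in conditioned medium, against 4.30 and 4.26 times in control. Cct6a overlaps Psph by 88 bases and holds the snoRNA genes Snora15 and Gm23245 in its locus. It has no principal coding transcript in the annotation used, so it has no value per kilobase. Its call was lost without either conditioned medium library, at log2 fold changes of -0.18 and -0.21 (adjusted p = 0.182 and 0.141, with alternatives from 1.57e-08).

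**Figure D3:**
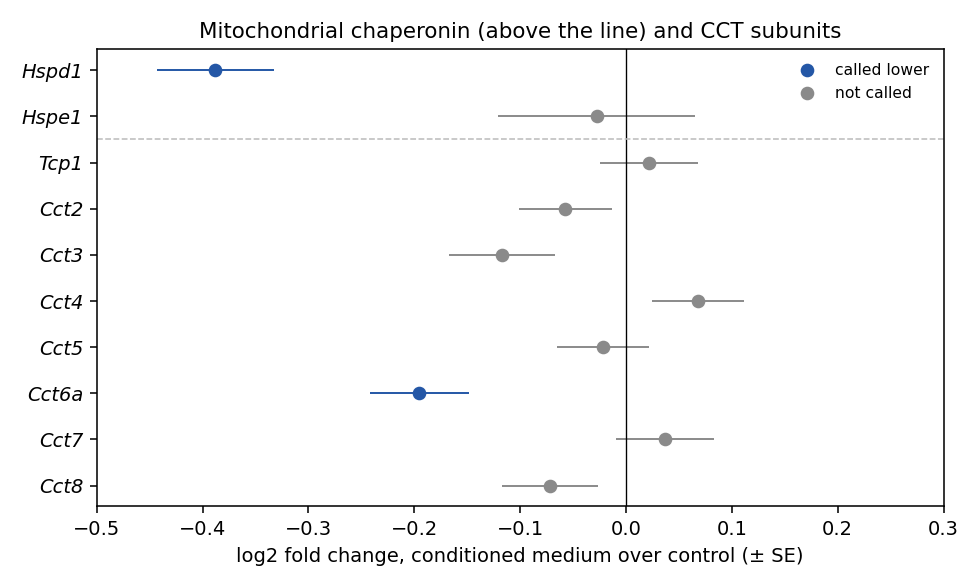
Log2 fold change of conditioned medium over control, with its SE as the bar, for the mitochondrial chaperonin pair (above the dashed line) and the CCT subunits with Tcp1. Hspd1 at -0.39 and Cct6a at -0.20 were called lower (blue); the other subunits lay between -0.12 and 0.07.

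DNAJ cochaperones formed the largest block, and 1 of them was called. Of 43 members 35 were tested, 1 fell and 0 rose, 2.86% against the 16.8% of all genes. At an unadjusted p under 0.05 there were 6 lower and 0 higher among the 35, while 4105 of all 13897 genes tested passed it in either direction. DESeq2 called 0 DNAJ genes and limma-voom 1, against 904 and 2325 of all genes. The calls depended on which library was left out, among the DNAJ genes and over all genes tested. Without control replicate 2 edgeR called more genes than with all 4 libraries, both over all genes and among the DNAJ genes. The DNAJ genes called lower there were Dnajc8, Dnaja1, Dnajb4, Dnajb6, Dnajc2, Dnajc10, Dnajc21 and Dnajc19-ps. With any other single library left out no DNAJ gene was called. In the comparison of all 4 libraries the median log2 fold change of the DNAJ genes was -0.03, and their median level of 22.2 CPM lay near the 23.7 CPM of all genes tested. Dnajc8, a nuclear DNAJ protein associated with splicing, had 65.7 and 62.4 CPM in conditioned medium, against 73.3 and 70.8 CPM in control. It fell by 0.17 ± 0.06 on the log2 scale (edgeR adjusted p = 0.0404), a call that was lost in 7 of 13 alternatives (adjusted p from 0.0152 to 0.376), among them DESeq2, the leaving out of either conditioned medium library and the leaving out of control replicate 1.

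All 4 DNAJA genes were tested and 0 were called by edgeR, DESeq2 or limma-voom on the 4 libraries, also at an unadjusted p under 0.05. Without control replicate 2 edgeR called Dnaja1 lower (adjusted p = 0.0103, with alternatives up to 0.868). Dnaja1 and Dnaja2, the main cytosolic partners of HSP70 in this class, were lower in conditioned medium without overlap but not called: Dnaja1 had 170 and 170 CPM in conditioned medium, against 188 and 172 CPM in control, and Dnaja2 had 180 and 180 CPM in conditioned medium, against 192 and 182 CPM in control. Dnaja4 had a log2 fold change of 0.73 ± 0.41 on 13 and 25 counts in conditioned medium, against 10 and 11 in control (edgeR adjusted p = 0.245), and the mitochondrial Dnaja3 was at 0.06 ± 0.08. In the DNAJB class 7 of 11 members were tested and 0 were called by any of the 3 tools. At an unadjusted p under 0.05 by edgeR, 1 was lower. With 16.8% of all genes called, classes as small as DNAJA and DNAJB would hold few calls. Dnajb1, the classic heat-inducible HSP40, had 29.8 and 27.9 CPM in conditioned medium, against 29.5 and 26.8 CPM in control, with overlapping groups (log2 fold change 0.03 ± 0.08; adjusted p = 0.835 by edgeR). Dnajb6, whose 3-unit heat shock element is shown above, had 127 and 119 CPM in conditioned medium, against 139 and 130 CPM in control (-0.13 ± 0.05, edgeR adjusted p = 0.0891). Without control replicate 2 edgeR called Dnajb6 lower (adjusted p = 0.00353, with alternatives up to 0.588), and likewise Dnajb4 (adjusted p = 0.0308, with alternatives up to 0.995). Dnajb4, Dnajb5, Dnajb2, Dnajb12 and Dnajb14 lay between -0.11 and 0.16.

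The DNAJC class, whose members work at many places in the cell, had 24 of 28 tested. Of those that act at the ribosome or in its assembly, Dnajc2, which sits at the exit of the ribosome, had a log2 fold change of -0.17 ± 0.07 and Dnajc21, a factor for the large subunit, one of -0.21 ± 0.08, without a call (edgeR adjusted p = 0.101 and 0.0769). The mitochondrial Dnajc11 stood at -0.26 ± 0.10, Dnajc19 at -0.11 ± 0.10, Dnajc30 at -0.15 ± 0.12 and Dnajc15 at -0.08 ± 0.10, none of them called. Dnajc10, a reductase of the endoplasmic reticulum, had 257 and 252 CPM in conditioned medium, against 274 and 263 CPM in control (-0.08 ± 0.04, edgeR adjusted p = 0.259), and the endoplasmic reticulum member Dnajc1 was at -0.04 ± 0.06. Dnajc5, the vesicle chaperone known as cysteine string protein, and Dnajc13, an endosomal factor, stood at 0.02 ± 0.05 and -0.02 ± 0.05. Dnajc7, which bridges HSP70 and HSP90, was at -0.15 ± 0.07, and the histone chaperone Dnajc9 at 0.05 ± 0.07. The pseudogene Dnajc19-ps had the lowest value of the class, -0.39 ± 0.25, on 35 and 80 counts in conditioned medium, against 85 and 53 in control, and can share reads with Dnajc19. The other 10 tested members of the class lay between -0.13 and 0.31, and none of them was called. Dnajb13, Dnajc5b and Dnajc5g had 0 counts in every library, and Dnajb3, Dnajb7, Dnajb8, Dnajc6 and Dnajc12 were too low to be tested.

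**Figure D4:**
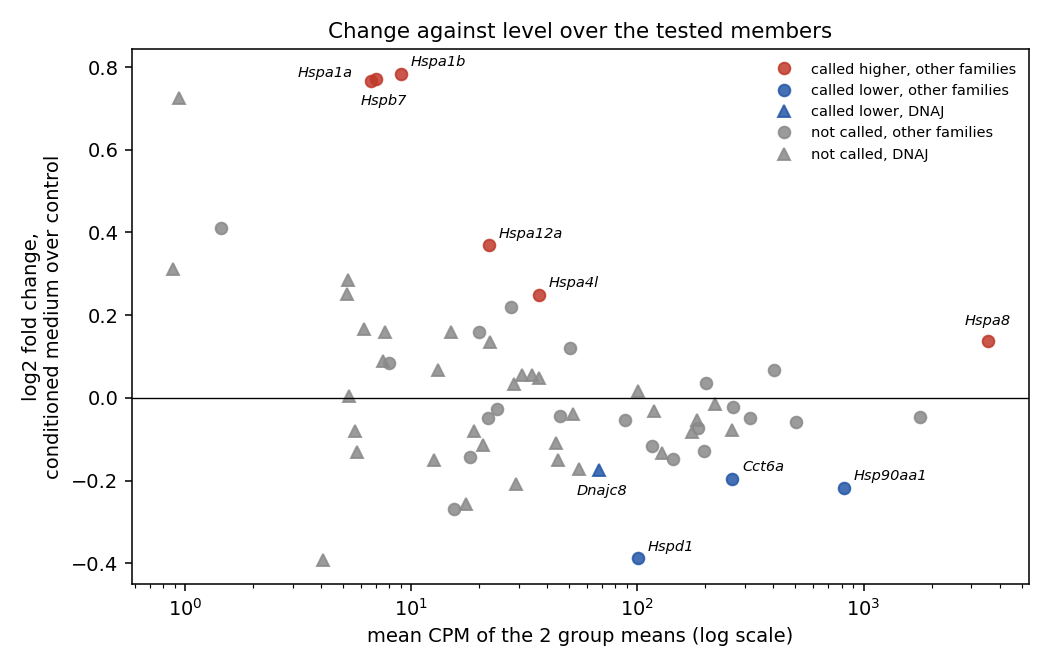
Log2 fold change of conditioned medium over control against the mean level in CPM (log scale) for the 65 tested members, with DNAJ genes as triangles and the other families as circles. Called genes are named: Hspa1a, Hspa1b and Hspb7 rose at low levels and Hspa8 rose at the highest level, and the 4 that fell lie between Dnajc8 (64.0 CPM in conditioned medium, 72.1 CPM in control) and Hsp90aa1 (760 CPM in conditioned medium, 884 CPM in control).

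Neither heat shock factor was called by edgeR, DESeq2 or limma-voom on the 4 libraries. Hsf1, the main stress-activated factor, had 22.5 and 20.7 CPM in conditioned medium, against 19.6 and 25.0 CPM in control, so that both treated values lay between the controls (log2 fold change -0.05 ± 0.11, edgeR adjusted p = 0.803), and the log2 fold change ran from -0.22 to 0.13 over the alternatives. Hsf2, a partner of Hsf1 with roles in development, had 30.0 and 29.7 CPM in conditioned medium, against 26.9 and 24.3 CPM in control. Its groups did not overlap, and its log2 fold change of 0.22 ± 0.08 passed an unadjusted p of 0.05 but not the adjusted threshold (edgeR adjusted p = 0.0721). It was called higher without control replicate 1 (adjusted p = 0.0185, with alternatives up to 0.446). HSF1 is controlled largely at the protein level, which these data do not measure.

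Among partner genes outside the rule, 13 other genes known to respond to HSF1 were tested and 0 were called by the 3 tools, against 16.8% of all genes tested by edgeR. At that share, lists as short as those in this paragraph would hold few calls, so 0 is not far from it. Of the 13 genes 1 was higher and 0 lower at an unadjusted p under 0.05, and their median log2 fold change was 0.00. Serpinh1, the collagen chaperone, had 318 and 335 CPM in conditioned medium, against 327 and 327 CPM in control, and Zfand2a, a stress-induced proteasome partner, had 188 and 194 CPM in conditioned medium, against 193 and 187 CPM in control. Of 12 genes for nucleotide exchange and substrate release from HSP70, edgeR and DESeq2 called 0 and limma-voom 1 (median 0.00; 1 higher and 2 lower at an unadjusted p under 0.05). Bag3, an HSF1 target that couples HSP70 to autophagy, stood at 77.3 and 77.6 CPM in conditioned medium, against 77.8 and 74.9 CPM in control. Of 10 other mitochondrial proteostasis genes 0 were called by the 3 tools (median 0.00; 1 lower at an unadjusted p under 0.05), with Trap1, the mitochondrial HSP90, at -0.19 ± 0.08 (edgeR adjusted p = 0.0941).

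Of 16 HSP90 cochaperones 1 rose and 3 fell, 25.0% against the 16.8% of all genes, with a median log2 fold change of -0.09. Unc45a, a myosin chaperone, rose by 0.18 ± 0.06 (edgeR adjusted p = 0.0432). Ttc4 fell by 0.23 ± 0.07, Chordc1 by 0.16 ± 0.05 and Tomm70a, a mitochondrial import receptor, by 0.16 ± 0.05. Among 10 CCT partners 2 fell, 20.0% against the same 16.8%. They were the prefoldin subunits Pfdn1 (-0.32 ± 0.11, edgeR adjusted p = 0.0429) and Vbp1 (-0.23 ± 0.06, edgeR adjusted p = 0.0154), which hand unfolded actin and tubulin to the ring. Their list had a median of -0.16, with 9 of 10 below 0, and DESeq2 called 0 of the 26 genes in these 2 lists. Of 7 endoplasmic reticulum chaperones left out by the rule or related to them, Hspa5 alone fell, 14.3% against the same 16.8%. Hspa5 had 431 and 447 CPM in conditioned medium, against 485 and 477 CPM in control (-0.13 ± 0.04, edgeR adjusted p = 0.0342). All 7 of these calls were lost when either conditioned medium library was left out, and their adjusted p reached 0.204 to 0.432 over the alternatives.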

How the data were processed

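Total RNA of mAEC cells had been made into TruSeq RNA V2 libraries, per the labels' protocols. Raw read counts by Entrez identifier were deposited by the authors as a single table. Per the submitters' processing notes, mm10, featureCounts of Subread 1.4.6-p1 and STAR 2.5.2b were used; settings and annotation are not stated there. Identifiers were matched to RefSeq genes of GRCm38.p6, the mm10 build (25275 of 27179 rows); all rows stayed in library sizes. Counts were tested with edgeR 4.0.16 in R 4.3.3: filterByExpr (minimum count 10, total 15), TMM (factors 0.987 to 1.01), quasi-likelihood, two-sided, Benjamini-Hochberg, called at an adjusted p under 0.05, with 2 residual degrees of freedom. Each SE was taken as the log2 fold change divided by the root of its F statistic, without sign. The procedure was tested on simulated data. Levels per kilobase use the GENCODE M21 principal transcript (77 of 79 members), so they are approximate. Alternatives were 3 other scalings, 2 filters, a replicate block, a robust spread, DESeq2 1.42.0, limma-voom (limma 3.58.1) and each library left out, which leaves 1 library whose spread is taken from the other group. Members and lists were chosen with earlier results of these data known. Named are the called members, the member with the largest change per family and a list of core chaperones; Hspb8 is on it. Other members were named after their values were seen.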

Additional observations from a re-analysis of the deposited data

How the results depend on the processing

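The 10 called members kept their direction in all 13 alternatives. DESeq2 called 904 genes in place of 2330, and 3 members higher in place of 6. With a library left out, 569 to 3107 genes, 0 to 8 members higher and 1 to 15 members lower were called; the fewest came without either conditioned medium library, where the spread comes from the control pair alone, and the 15 without control replicate 2. The same replicate numbers did not pair the libraries: the correlation of their deviations was -0.04 over 10662 genes. The replicate block called 2671 genes, 5 members higher and 5 lower; Hspa8 lost its call (adjusted p = 0.0808, with alternatives from 8.16e-09 to 0.439) and Hspb1 gained one. Other scalings moved the median of all genes to at most 0.02 on the log2 scale. With 2 libraries a group, an exact test of a single value cannot go below p = 0.333. Genes near 1 CPM, such as Dnaja4 and Hspa1l (0.677 to 1.80 CPM), had SEs of 0.34 to 0.41. Rises of the size seen in Hspa1b were not detectable at such SEs.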
